A study of Homo sapiens with 16 samples.

Results

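TRIM28 and the SETDB1 pathway silence retroelements and other repressed loci, and 10 genes of this machinery were followed here through SUMO inhibition and Dex treatment of myeloma cells. The 10 genes, taken by symbol from the authors' count table of 23354 genes, were TRIM28, SETDB1, ATF7IP, MORC2, MORC3, ATRX, CBX1, CBX3, CBX5 and MPHOSPH8. All 10 were found and all 10 were among the 14215 genes tested. MM1S and MM1R are sister lines of human multiple myeloma, a plasma cell cancer, and they differ in their response to dexamethasone (Dex), a glucocorticoid: MM1S is sensitive and MM1R is resistant. Cells of each line received vehicle, 0.1 μM TAK-981, which inhibits the SUMO E1 enzyme, 1 μM Dex, or both drugs at these doses (combo), for 48 h in each case. Ribosomal RNA-depleted total RNA was sequenced in 2 libraries for each of the 8 groups, 16 in all. The duplicates are not described as separate cultures, so the p-values measure the spread between these libraries, which may be technical, and each line stands for 1 cell population.

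TRIM28 (KAP1) is the corepressor that KRAB zinc finger proteins bring to DNA. It recruits SETDB1, which trimethylates histone H3 at lysine 9 (H3K9me3) with its partner ATF7IP, a protein that stabilises SETDB1 and holds it in the nucleus. The HP1 proteins HP1α (CBX5), HP1β (CBX1) and HP1γ (CBX3) bind this mark and TRIM28. MPHOSPH8 reads H3K9me3 in the HUSH complex, with which the ATPase MORC2 works, while ATRX deposits histone H3.3 together with DAXX, and MORC3 is another silencing ATPase found at PML bodies. SUMO modification ties this pathway together, since SUMO on TRIM28 and on other factors is bound by SETDB1 and ATF7IP through SUMO-interacting motifs.

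Levels are given as CPM, counts per 1000000 counted reads after TMM scaling of the library totals, and as CPM per kb of the length in the count table where genes are compared with each other. Library totals ran from 15707587 to 20644510 counts in MM1S and from 18987739 to 24796539 in MM1R. A change was called where edgeR's quasi-likelihood test, with p-values adjusted by Benjamini-Hochberg over all genes, gave less than 0.05, and changes are log2 fold changes with their standard error (SE). CPM is a share of the counted RNA, so fewer cells with a transcript and less of it per cell cannot be told apart. The plasma cell markers SDC1, PRDM1 and XBP1 lay at 495 CPM or more in every library, and the T cell and myeloid markers CD3D and S100A8 had 0 counts throughout. Summed levels of 5 T cell, 6 myeloid and 6 stromal or epithelial markers reached at most 5.89, 4.12 and 4.28 CPM in any library. CD38, another plasma cell marker, was low, at 6.74 to 44.9 CPM. Duplicates differed most in the MM1S TAK-981 and MM1S Dex groups (chi-square over degrees of freedom 21.2 and 19.2), against 2.08 to 9.14 in the other groups.

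In vehicle-treated MM1S cells TRIM28 was the most abundant of the 10 transcripts per length, at 86.7 ± 3.17 CPM per kb (SD, n = 2). CBX3 followed at 71.7 ± 0.17 and CBX5 at 43.5 ± 1.28, and MPHOSPH8 was lowest at 13.2 ± 0.35. The order in vehicle-treated MM1R cells was also led by TRIM28 (119 ± 2.43), CBX3 (72.1 ± 1.29) and CBX5 (57.5 ± 1.24), and MPHOSPH8 was again lowest at 10.6 ± 0.02. SETDB1 and ATRX overlapped in the MM1S libraries and SETDB1 and CBX1 in the MM1R libraries, while the other neighbours in either order did not overlap. TRIM28 lay above 96.4% of all genes tested in MM1S and MPHOSPH8 above 65.5%. Before division by length CBX5 was the highest of the 10 in the MM1S vehicle group, at 516 CPM against 255 for TRIM28.

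**Figure D1:**
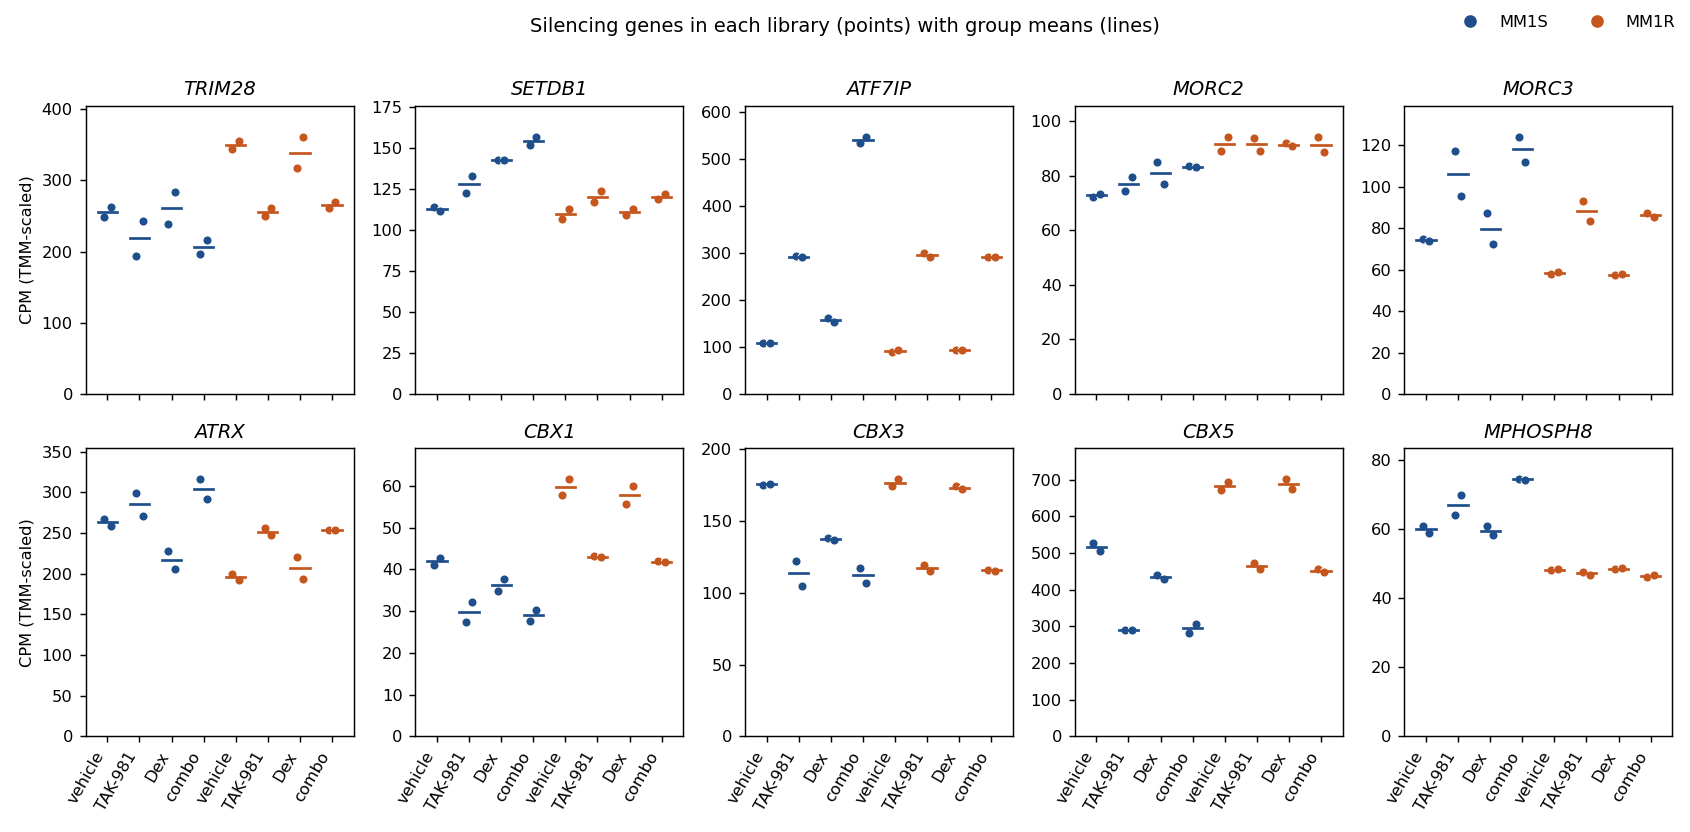
Level of each of the 10 genes in every library, in CPM from 0, with MM1S in blue and MM1R in orange, points for libraries and lines for the means of 2. ATF7IP stands out in the MM1S combo libraries (534 and 548 CPM), while MORC2 stays between 72.4 and 94.3 CPM in all 16 libraries.

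TAK-981 changed 7 of the 10 genes in each line. In MM1S 4 rose and 3 fell, beside 49% of all genes tested being called, and in MM1R 3 rose and 4 fell, beside 53.4%. The median change of the 10 was 0.10 in MM1S and −0.02 in MM1R, against 0.04 and 0.00 over all genes. ATF7IP and MORC3 rose and the 3 HP1 genes fell in both lines.

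ATF7IP, the SETDB1 partner, had the largest change of the 10. In MM1S it stood at 109 and 109 CPM with vehicle and at 294 and 291 with TAK-981. In MM1R it stood at 88.9 and 92.9 CPM with vehicle and at 300 and 291 with TAK-981. All TAK-981 libraries lay far above the vehicle libraries, with no overlap. The log2 fold change was 1.43 (SE 0.055, edgeR adjusted p = 5.72e-13) in MM1S, 2.69-fold, and 1.70 (SE 0.055, adjusted p = 4.88e-14) in MM1R, 3.25-fold. By p value ATF7IP ranked 20 of 14215 genes in MM1S and 11 in MM1R, and 96.8% and 96.9% of genes had a smaller log2 fold change. Over the settings with all libraries the MM1S change lay between 1.38 and 1.43 and the MM1R change between 1.69 and 1.71.

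SETDB1, the methyltransferase itself, moved little. It was at 114 and 112 CPM with vehicle and at 123 and 133 with TAK-981 in MM1S, and at 107 and 113 against 117 and 124 in MM1R. The TAK-981 libraries were above the vehicle libraries in both lines. The change was 0.18 (SE 0.060, edgeR adjusted p = 0.0186) in MM1S and 0.13 (SE 0.060, adjusted p = 0.0776) in MM1R, where it did not pass the test. The MM1S call was lost in 3 of 6 settings with all libraries (adjusted p = 0.0561 to 0.177) and without MM1S vehicle replicate 1 (0.0573), vehicle replicate 2 (0.0972) or TAK-981 replicate 2 (0.161). In MM1R the test was passed in 2 of 6 settings with all libraries (adjusted p = 0.00162 and 0.0293). The ratio of ATF7IP to SETDB1, both per kb, was 0.715 and 0.731 with vehicle and 1.80 and 1.64 with TAK-981 in MM1S. The MM1R ratios were 0.621 and 0.616 with vehicle and 1.93 and 1.75 with TAK-981.

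TRIM28, the corepressor, was lower with TAK-981 in both lines. In MM1R it was at 344 and 355 CPM with vehicle and at 250 and 261 with TAK-981, a change of −0.45 (SE 0.096, edgeR adjusted p = 0.000845). In MM1S it was at 248 and 262 CPM with vehicle and at 194 and 243 with TAK-981. The MM1S groups did not overlap, but the TAK-981 duplicates were far apart and the change of −0.22 (SE 0.097, adjusted p = 0.0656) did not pass the test. It passed in 5 of 6 settings with all libraries, among them DESeq2 (−0.24, adjusted p = 0.0333), and without MM1S TAK-981 replicate 2 (−0.40, adjusted p = 0.00134). Over the 8 groups the genes whose mean log2 CPM was most like that of TRIM28 were XRCC6 (Pearson r = 0.998), DPM2 (0.996) and CSRP1 (0.996), and for SETDB1 they were STPG4 (0.998), ANAPC16 (0.995) and ZNF446 (0.994). These r values are the highest among all genes tested, they rest on 8 means from the same libraries and they are given as a description.

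The HP1 genes fell together. CBX5 (HP1α) was at 527 and 505 CPM with vehicle and at 291 and 290 with TAK-981 in MM1S, and at 672 and 693 against 473 and 455 in MM1R. CBX3 (HP1γ) was at 175 and 176 against 122 and 105 CPM in MM1S, and at 174 and 179 against 119 and 115 in MM1R. CBX1 (HP1β) was at 41.1 and 42.7 against 27.4 and 32.2 CPM in MM1S, and at 57.8 and 61.6 against 43.2 and 42.9 in MM1R. For each of the 3 genes every TAK-981 library lay below every vehicle library of the same line. CBX5 changed by −0.83 (SE 0.054, edgeR adjusted p = 5.3e-10) in MM1S and by −0.56 (SE 0.054, adjusted p = 1.12e-07) in MM1R. CBX3 changed by −0.62 (SE 0.067, adjusted p = 3.68e-07) and −0.59 (SE 0.067, adjusted p = 7.05e-07), and CBX1 by −0.49 (SE 0.083, adjusted p = 8.08e-05) and −0.47 (SE 0.079, adjusted p = 6.43e-05). All 6 calls held in every alternative setting and with each library left out in turn. CBX1, CBX3 and CBX5 have 5, 10 and 1 pseudogenes named after them in the reference tables, so reads may be shared with these copies.

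Summed per kb, the 3 HP1 genes stood at 131 and 130 CPM per kb in the MM1S vehicle libraries and at 84.8 and 79.4 with TAK-981, 62.7% of the vehicle mean. In MM1R they stood at 150 and 154 and at 105 and 101, 67.8% of the vehicle mean. CBX3 made up the largest part of this sum, 54.5% and 55.1% in MM1S vehicle libraries and 47.6% and 47.3% in MM1R. These parts rest on the lengths in the count table, 2.446 kb for CBX3 and 11.861 kb for CBX5, and in CPM CBX5 was the higher. With TAK-981 against vehicle, 16 of 16 proliferation markers also fell in each line. Their median changes were −1.46 (MM1S) and −1.03 (MM1R). Their summed level was 4594 to 4800 CPM with vehicle and 1675 to 1843 CPM with TAK-981 in MM1S. In MM1R it was 6998 to 7238 CPM with vehicle and 3577 to 3601 CPM with TAK-981. The part of proliferation in the HP1 result was not tested.

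**Figure D2:**
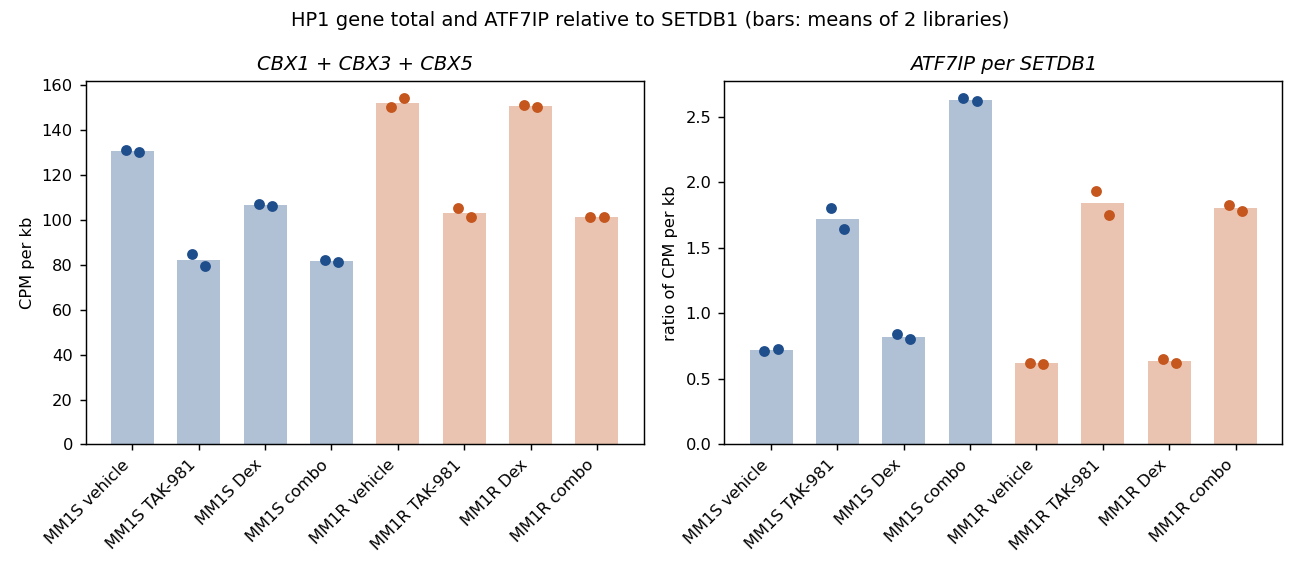
Left, the summed level of CBX1, CBX3 and CBX5 in CPM per kb. Right, the ratio of ATF7IP to SETDB1, both in CPM per kb. Bars are means of 2 libraries and points are libraries. The HP1 sum is lower in the TAK-981 and combo groups of both lines, and the ATF7IP ratio is highest in MM1S combo (2.64 and 2.62).

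MORC3, the PML body ATPase, rose in both lines. It was at 74.9 and 73.6 CPM with vehicle and at 117 and 95.3 with TAK-981 in MM1S, and at 58.1 and 58.9 against 93.2 and 83.4 in MM1R. No libraries overlapped, although the TAK-981 duplicates were wide apart. The change was 0.51 (SE 0.093, edgeR adjusted p = 0.000184) in MM1S and 0.59 (SE 0.094, adjusted p = 4.57e-05) in MM1R.

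MORC2 and MPHOSPH8, the HUSH genes, moved little. MORC2 changed by 0.08 (95% interval −0.06 to 0.22) in MM1S and by 0.00 (−0.14 to 0.13) in MM1R, and neither passed the test. MPHOSPH8 was at 61 and 58.8 CPM with vehicle and at 64.1 and 69.9 with TAK-981 in MM1S, a change of 0.16 (SE 0.063, edgeR adjusted p = 0.041). This call was lost in 5 of 6 settings with all libraries (adjusted p = 0.0664 to 0.291) and without MM1S vehicle replicate 1 (0.0805), vehicle replicate 2 (0.201) or TAK-981 replicate 2 (0.297). In MM1R MPHOSPH8 changed by −0.03 (95% interval −0.17 to 0.10). ATRX, the H3.3 remodeller, was at 199 and 192 CPM with vehicle and at 256 and 247 with TAK-981 in MM1R, a rise of 0.36 (SE 0.071, adjusted p = 0.00035). In MM1S it was at 267 and 259 against 299 and 271 CPM, a change of 0.12 (SE 0.071, adjusted p = 0.184) that did not pass.

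**Figure D3:**
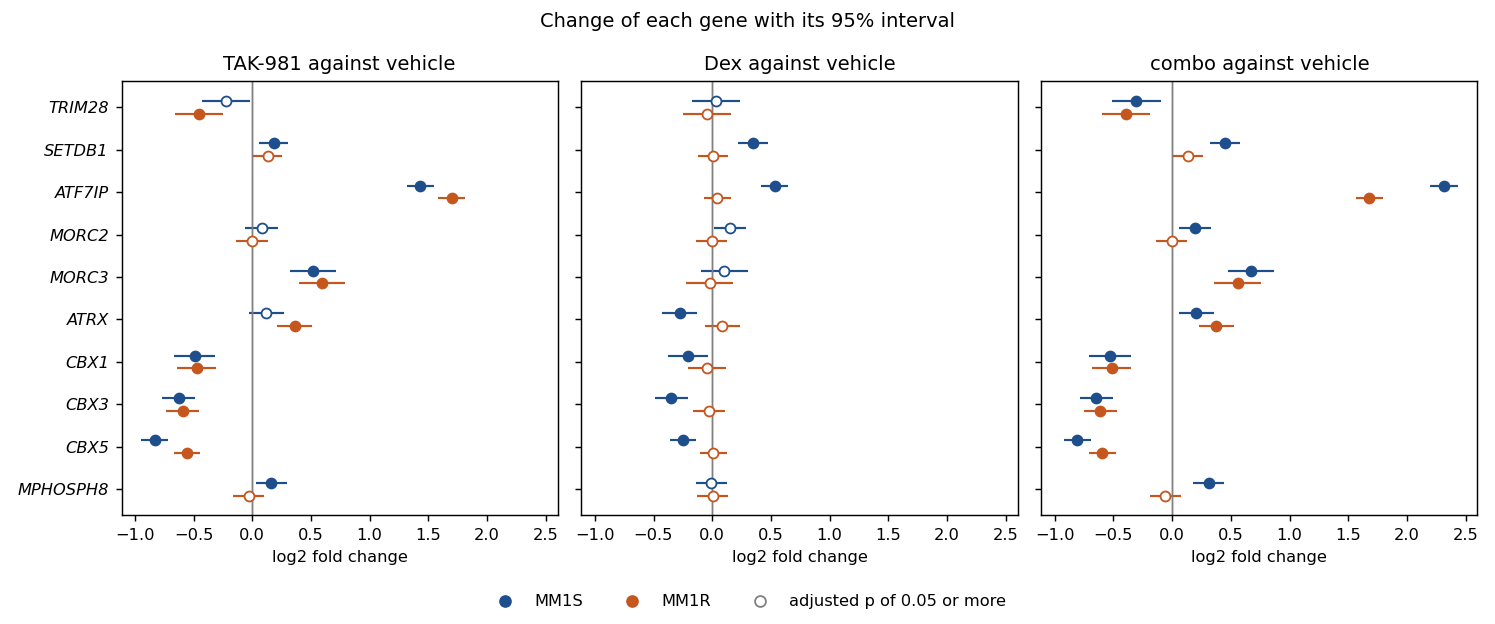
Log2 fold change of each gene against vehicle with its 95% interval, for TAK-981, Dex and combo, MM1S in blue and MM1R in orange. Open symbols did not reach an adjusted p under 0.05. ATF7IP lies at 1.43 and 1.70 for TAK-981, and all MM1R symbols for Dex are open and near 0.

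Whether the lines differed in their response to TAK-981 was tested with an interaction term. It called 0 of the 10 genes in edgeR, beside 4.16% of all genes, and 4 of the 10 had an unadjusted p under 0.05. The nearest were CBX5, which fell less in MM1R by 0.27 (SE 0.076, edgeR adjusted p = 0.0502), and ATF7IP, which rose more in MM1R by 0.27 (SE 0.076, adjusted p = 0.0512). Both passed with RLE factors, with library size alone and in DESeq2 (adjusted p = 0.0101 to 0.0396), which called 2 of the 10 each. The share of all genes called was 4.56% with RLE factors and 4.95% with library size alone. Without MM1S TAK-981 replicate 1, 4 were called, CBX5 (0.0304), ATF7IP (0.0281), TRIM28 (0.0307) and ATRX (0.0374), and the share of all genes called was 16.1%.

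Dex by itself was called for 6 of the 10 genes in MM1S, 2 higher and 4 lower, beside 42.3% of all genes. In MM1R edgeR called 0 of the 10 and 0% of all genes, with 0 of the 10 and 395 of all genes at an unadjusted p under 0.05, and DESeq2 also called 0 genes. ATF7IP rose in MM1S to 161 and 153 CPM, a change of 0.53 (SE 0.055, edgeR adjusted p = 2.67e-07), and SETDB1 rose to 143 and 143 CPM, a change of 0.35 (SE 0.060, adjusted p = 0.000136). Both Dex libraries exceeded both vehicle libraries for these 2 genes. CBX3 fell to 138 and 137 CPM (−0.35, SE 0.067, adjusted p = 0.000328), CBX5 to 440 and 429 CPM (−0.25, SE 0.054, adjusted p = 0.00114), ATRX to 228 and 206 CPM (−0.28, SE 0.071, adjusted p = 0.00426) and CBX1 to 34.9 and 37.6 CPM (−0.21, SE 0.082, adjusted p = 0.0489). The HP1 sum in MM1S was 81.4% of vehicle with Dex, and 98.9% in MM1R. The 16 proliferation markers also fell in MM1S with Dex, by a median of −0.94, and 0 of 16 were called in MM1R; their part was not tested. The CBX1 call was lost in 3 of 6 settings (adjusted p = 0.0681 to 0.0749) and without MM1S vehicle replicate 1 (0.0985), vehicle replicate 2 (0.196) or Dex replicate 1 (0.228). ATRX was lost without MM1S Dex replicate 2 (0.0588), and MORC2, at 0.16 and not called, passed without that library (0.22, adjusted p = 0.0288).

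In MM1R all Dex changes lay between −0.05 (CBX1) and 0.09 (ATRX). ATF7IP was at 94.4 and 93.1 CPM against 88.9 and 92.9 with vehicle, a change of 0.04 (95% interval −0.07 to 0.16). SETDB1 was at 109 and 113 CPM against 107 and 113, a change of 0.01 (−0.12 to 0.13). The line by Dex interaction called 5 of the 10 genes, 3 higher and 2 lower in MM1R relative to MM1S, beside 28.1% of all genes. The Dex response of ATF7IP was smaller in MM1R by −0.49 (SE 0.077, edgeR adjusted p = 0.000102) and that of SETDB1 by −0.34 (SE 0.085, adjusted p = 0.00574). For ATRX (0.36, adjusted p = 0.0115), CBX3 (0.32, adjusted p = 0.0145) and CBX5 (0.26, adjusted p = 0.0166) the MM1R change was the higher value, the gene having fallen in MM1S. Fewer of the 10 were called without MM1S vehicle replicate 1, MM1R vehicle replicate 1 or MM1R Dex replicate 1. In each of these fits the share of all genes called was also below 28.1%. ATRX was lost without MM1S vehicle replicate 1 (0.0514), MM1S Dex replicate 2 (0.0515), MM1R vehicle replicate 2 (0.0545) or MM1R Dex replicate 1 (0.0793), CBX5 without MM1S vehicle replicate 1 (0.0761), MM1R vehicle replicate 1 (0.0767) or MM1R Dex replicate 1 (0.0684), and CBX3 without MM1R vehicle replicate 1 (0.0591).

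With both drugs, all 10 genes were called against vehicle in MM1S, 6 higher and 4 lower, beside 60.3% of all genes. In MM1R 7 were called, 3 higher and 4 lower, beside 51.5%. ATF7IP reached 534 and 548 CPM in MM1S, 4.98-fold over vehicle (log2 fold change 2.31, SE 0.056, edgeR adjusted p = 1.51e-16), against 292 and 291 CPM in MM1R, 3.21-fold. In MM1S combo it became the most abundant of the 10 per kb, at 85.0 ± 1.59 CPM per kb, above TRIM28 at 70.2 ± 4.71, and it had been the 7th in vehicle. The smaller rises in MM1S were MORC3 (0.67), SETDB1 (0.45), MPHOSPH8 (0.31), ATRX (0.21) and MORC2 (0.20), and the falls were CBX5 (−0.81), CBX3 (−0.65), CBX1 (−0.53) and TRIM28 (−0.30). The HP1 sum was 62.3% of vehicle in MM1S and 66.4% in MM1R. MORC2 (adjusted p = 0.0154) was lost without MM1S vehicle replicate 1 (0.0813), vehicle replicate 2 (0.0527), combo replicate 1 (0.0621) or combo replicate 2 (0.0521), TRIM28 (0.0123) without vehicle replicate 2 (0.0789) or combo replicate 1 (0.11), and ATRX (0.0178) without vehicle replicate 2 (0.105) or combo replicate 1 (0.169).

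Adding Dex to TAK-981 in MM1S called 2 of the 10 genes, both higher, beside 35.1% of all genes. They were ATF7IP (0.885, SE 0.053, edgeR adjusted p = 2.52e-10), at 534 and 548 CPM against 294 and 291, and SETDB1 (0.27, SE 0.060, adjusted p = 0.00182), at 152 and 157 CPM against 123 and 133. The HP1 genes differed by −0.04 to 0.02 between combo and TAK-981, and their 95% intervals reached from −0.22 to 0.15. In the same comparison 16 of 16 proliferation markers fell, by a median of −1.37. The part of proliferation was not tested. Without MM1S TAK-981 replicate 1, TRIM28 (−0.23) and MORC3 (0.31) were called as well, and more of all genes were called than with all libraries. Without TAK-981 replicate 2, MPHOSPH8 (0.21) was added, and fewer of all genes were called. In MM1R combo against TAK-981 edgeR called 0 of the 10 and 0% of all genes, with 0 and 214 at an unadjusted p under 0.05, and DESeq2 called 0 genes. Adding TAK-981 to Dex called 8 of the 10 in MM1S, 4 in each direction, beside 47.6% of all genes, and 7 in MM1R, 3 higher and 4 lower, beside 48.4%. There ATF7IP differed by 1.78 (SE 0.055, adjusted p = 3.64e-14) and 1.64 (SE 0.055, adjusted p = 7.61e-14). In MM1S the TRIM28 call was lost without Dex replicate 2 (0.13) or combo replicate 1 (0.0927) and the CBX1 call without combo replicate 1 (0.0614), and in MM1R TRIM28 was lost without Dex replicate 2 (0.087) or combo replicate 1 (0.05) and ATRX without Dex replicate 2 (0.0682).

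Whether the combo change was larger or smaller than both single changes added together was tested with a TAK-981 by Dex term in each line. In MM1S it called 4 of the 10 genes, all higher than the sum, beside 14.9% of all genes. ATF7IP exceeded the sum of 1.96 by 0.35 (SE 0.076, edgeR adjusted p = 0.00443). ATRX had a sum of −0.16 and a combo change of 0.21, a departure of 0.37 (SE 0.101, adjusted p = 0.0205). CBX3 (0.33, SE 0.095, adjusted p = 0.0267) and CBX5 (0.27, SE 0.077, adjusted p = 0.0247) fell less than the sums of −0.97 and −1.08. The test called 0 of the 10 when only these 4 groups were fitted, with adjusted p from 0.0635 (ATF7IP) to 0.144 (CBX5). That fit called 779 of all genes, against 2125 with all groups. With all groups, only ATF7IP was called without MM1S vehicle replicate 1 or Dex replicate 2. ATRX and CBX3 were lost without TAK-981 replicate 2 or combo replicate 1. In each of these fits fewer of all genes were called than with all libraries. CBX3 was also lost without vehicle replicate 2 (0.0722) and CBX5 without combo replicate 2 (0.087). ATF7IP stayed called with each library left out in turn. In MM1R edgeR called 0 of the 10 and 0% of all genes in this test, with 0 and 400 at an unadjusted p under 0.05, and DESeq2 called 0 genes.

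**Figure D4:**
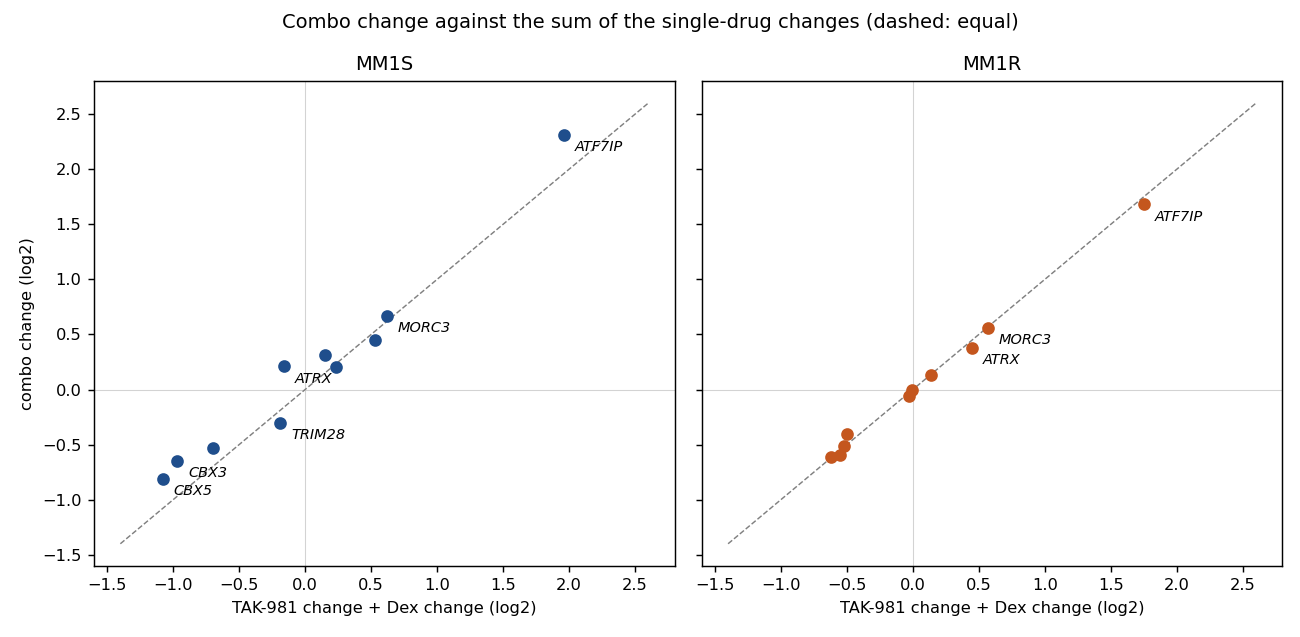
Combo change against the sum of the TAK-981 and Dex changes for the 10 genes, both on the log2 scale, for MM1S (left) and MM1R (right), with the dashed line where they are equal. ATF7IP lies above the line in MM1S (2.31 against 1.96) and at it in MM1R (1.68 against 1.75).

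The lines also differed without drug. In vehicle, 8 of the 10 genes differed between MM1R and MM1S, 4 higher and 4 lower in MM1R, beside 48.2% of all genes. Higher in MM1R were CBX1 (0.51, SE 0.079, edgeR adjusted p = 3.84e-05), TRIM28 (0.46, SE 0.096, adjusted p = 0.000959), CBX5 (0.40, SE 0.054, adjusted p = 8e-06) and MORC2 (0.33, SE 0.064, adjusted p = 0.000363). Lower were ATRX (−0.43, SE 0.071, adjusted p = 8.68e-05), MORC3 (−0.34, SE 0.095, adjusted p = 0.00612), MPHOSPH8 (−0.31, SE 0.063, adjusted p = 5e-04) and ATF7IP (−0.26, SE 0.055, adjusted p = 0.000827). SETDB1 (−0.03, 95% interval −0.16 to 0.09) and CBX3 (0.01, −0.13 to 0.15) did not pass. Of the 16 proliferation markers 15 were also higher in MM1R, by a median of 0.52, and their part was not tested. The vehicle libraries serve both this comparison and the drug comparisons.

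Promoter sequence is shown for ATF7IP, which rose, and for the 3 HP1 genes, which fell together. The RefSeq table of promoter windows (build GRCh38.p14, 250 bases before to 50 bases after a start) held 8 of the 10 genes, without TRIM28 and ATRX. The first window listed for each gene is printed 5′ to 3′ on the gene's strand. ATF7IP has 6 windows and CBX5 has 3, of which the others were not examined for these genes, while CBX3 and CBX1 have 1 each. The printed windows lie at chr12:14365432-14365731 (plus strand) for ATF7IP, chr12:54280073-54280372 (minus) for CBX5, chr7:26201193-26201492 (plus) for CBX3 and chr17:48101137-48101436 (minus) for CBX1. Capitals mark every match on either strand to an E2F-type octamer (TTTGGCGC or TTTCGCGC), the E2F core GGCGGGA, the E-box CACGTG, the CCAAT box or the cell cycle element CHR (TTTGAA).
ATF7IP: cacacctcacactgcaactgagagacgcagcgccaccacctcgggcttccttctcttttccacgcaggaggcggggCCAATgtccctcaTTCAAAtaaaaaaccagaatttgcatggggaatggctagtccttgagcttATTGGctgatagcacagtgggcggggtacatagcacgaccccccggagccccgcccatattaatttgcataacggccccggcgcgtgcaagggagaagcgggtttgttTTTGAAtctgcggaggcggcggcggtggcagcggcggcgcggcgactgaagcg
CBX5: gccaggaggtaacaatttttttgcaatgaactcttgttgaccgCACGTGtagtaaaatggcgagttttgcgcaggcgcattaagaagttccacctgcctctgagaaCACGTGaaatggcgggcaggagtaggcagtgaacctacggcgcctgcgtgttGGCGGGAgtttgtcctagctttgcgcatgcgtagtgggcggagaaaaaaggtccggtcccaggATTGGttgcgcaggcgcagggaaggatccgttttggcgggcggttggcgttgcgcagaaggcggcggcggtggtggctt
CBX3: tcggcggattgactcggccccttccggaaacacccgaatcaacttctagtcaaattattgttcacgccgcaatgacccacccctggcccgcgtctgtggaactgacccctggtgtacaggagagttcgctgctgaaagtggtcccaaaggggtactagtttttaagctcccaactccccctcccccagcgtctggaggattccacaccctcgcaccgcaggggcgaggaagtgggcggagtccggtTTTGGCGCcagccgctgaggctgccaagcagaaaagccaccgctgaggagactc
CBX1: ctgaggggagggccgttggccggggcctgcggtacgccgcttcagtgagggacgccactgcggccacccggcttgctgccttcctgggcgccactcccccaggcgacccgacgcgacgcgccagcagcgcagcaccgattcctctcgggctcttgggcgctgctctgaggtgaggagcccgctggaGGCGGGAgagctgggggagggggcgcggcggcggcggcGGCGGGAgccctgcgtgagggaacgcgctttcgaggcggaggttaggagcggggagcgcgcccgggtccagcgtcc
The ATF7IP window holds 2 CCAAT and 2 CHR matches and no E2F form. Each of the 3 HP1 windows holds an E2F form, the core in CBX1 (2 matches) and CBX5 (1) and the octamer in CBX3, and none of the other 5 windows does. Of all 35116 windows 16.2% hold either form, 1.15% the octamer, 15.4% the core, 7.26% the E-box, 34.6% CCAAT and 15.2% CHR. CBX5 also has 2 E-boxes and 1 CCAAT match. No match of the octamer overlaps one of the core here, and these matches describe the letters in 1 window per gene and no binding.

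In the authors' table (hg19) ATF7IP lies on chromosome 12 from 14518611 to 14651697, plus strand, CBX5 on chromosome 12 from 54624731 to 54673915, minus strand, CBX3 on chromosome 7 from 26240831 to 26253227, plus strand, and CBX1 on chromosome 17 from 46147414 to 46178883, minus strand. TRIM28 (chromosome 19, 59055836 to 59062082) and SETDB1 (chromosome 1, 150898815 to 150937220) are plus-strand genes. CBX3 and CBX5 start 418 and 573 bp from the starts of HNRNPA2B1 and HNRNPA1, RNA-binding protein genes on the opposite strand, which were singled out after the values of the members were seen. HNRNPA2B1 fell with TAK-981 by −0.46 (SE 0.064, edgeR adjusted p = 1.06e-05) in MM1S and −0.47 (SE 0.064, adjusted p = 6.9e-06) in MM1R, and HNRNPA1 by −0.52 (SE 0.109, adjusted p = 0.000877) and −0.33 (SE 0.109, adjusted p = 0.0186). Whether counting used the strand is not stated, so overlapping genes cannot be told apart, but rows overlapping SETDB1, MORC2, CBX1, CBX5 and ATRX had at most 52, 5, 15, 0 and 0 counts in any library.

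The wider silencing network was given by 6 lists of other genes, with 61 genes tested. In MM1S 10 of the 61 rose and 25 fell with TAK-981, with a median of −0.08, and in MM1R 15 rose and 28 fell, with a median of −0.09. Among all genes 25.2% rose and 23.7% fell in MM1S, and 25.8% rose and 27.6% fell in MM1R. These shares are the background for the TAK-981 counts of each list below. Both lines' values are each set against the vehicle libraries of that line.

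Of 4 other genes of the HUSH complex and its partners, 2 rose and 1 fell in each line. ATF7IP2, the paralogue of ATF7IP, was at 5.31 and 4.82 CPM with vehicle and at 16.9 and 14.4 with TAK-981 in MM1S, and at 4.88 and 4.87 against 16 and 14.8 in MM1R. Its change was 1.62 (SE 0.150, edgeR adjusted p = 4.97e-08) and 1.66 (SE 0.146, adjusted p = 3.39e-08). With Dex in MM1S it changed by −0.17 (SE 0.180, adjusted p = 0.474), which did not pass. In MM1S combo ATF7IP2 was at 15.7 and 12.8 CPM.

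Of the 8 other H3K9 methyltransferase genes, 0 rose and 2 fell in MM1S, and 1 rose and 3 fell in MM1R. Of 11 H3K9 demethylase genes, 4 rose and 3 fell in MM1S, and 6 rose and 2 fell in MM1R. KDM7A, which removes H3K9me2, went from 53.1 and 49.9 to 77.4 and 73.6 CPM in MM1S (0.55, SE 0.084, edgeR adjusted p = 2.59e-05) and from 26.0 and 22.8 to 62.0 and 60.4 CPM in MM1R (1.32, SE 0.089, adjusted p = 1.04e-09), a rise that was larger in MM1R by 0.77 (SE 0.122, adjusted p = 0.00132). KDM4C, an H3K9me3 demethylase, rose by 0.57 (SE 0.069, adjusted p = 1.53e-06) in MM1R and by 0.31 (SE 0.067, adjusted p = 0.000875) in MM1S.

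Of the 16 relatives of TRIM28 and subunits of the NuRD deacetylase complex, 2 rose and 8 fell in MM1S, and 3 rose and 11 fell in MM1R. TRIM66, a relative of TRIM28, rose by 0.59 (SE 0.106, edgeR adjusted p = 0.000132) in MM1S and by 0.79 (SE 0.105, adjusted p = 5.79e-06) in MM1R. RBBP7, a histone chaperone of NuRD, fell from 310 and 308 CPM to 184 and 186 in MM1R (−0.74, SE 0.055, adjusted p = 3.88e-09). Its change in MM1S was also −0.74 (SE 0.056, adjusted p = 3.98e-09). Of 9 genes of DAXX and H3.3 deposition, 1 rose and 2 fell in MM1S, and 2 rose and 3 fell in MM1R.

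Of 13 HP1 partners 9 fell in MM1S and 8 in MM1R, 1 rose in each line, and the medians were −0.45 and −0.42. UHRF1, which reads H3K9me3 and hemimethylated DNA, went from 42.8 and 43.5 to 10.4 and 13.3 CPM in MM1S (−1.86, SE 0.109, edgeR adjusted p = 1.25e-10) and from 62.7 and 65.2 to 20.8 and 22.0 in MM1R (−1.58, SE 0.099, adjusted p = 4.04e-10). CHAF1B, a subunit of the replication-coupled chaperone CAF-1, fell by −1.54 (SE 0.087, adjusted p = 7.18e-11) and −1.04 (SE 0.079, adjusted p = 4.73e-09). ASF1B, an H3-H4 chaperone of the H3.3 list, fell by −1.44 (SE 0.094, adjusted p = 5.02e-10) in MM1S and by −0.91 (SE 0.085, adjusted p = 7.56e-08) in MM1R. These genes are known to be expressed in replicating cells, and the fall of 16 of 16 proliferation markers stands beside them with its part not tested.

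**Figure D5:**
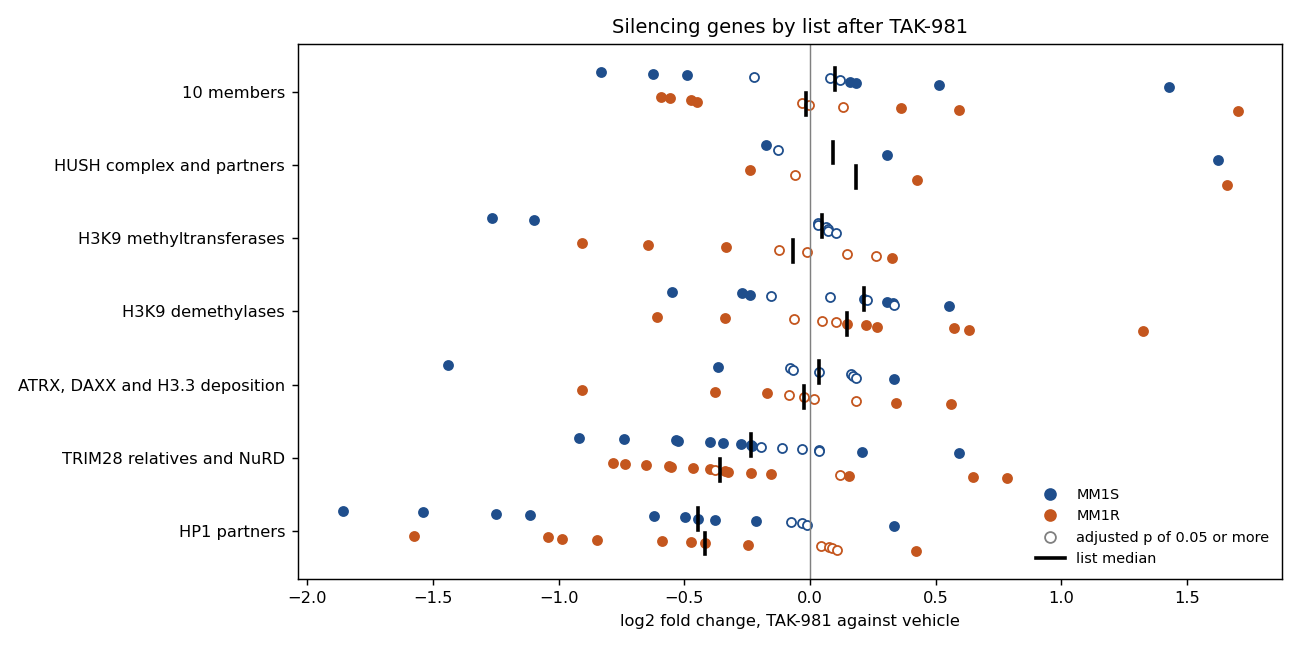
Log2 fold change of TAK-981 against vehicle for the 10 genes and the 6 lists of other silencing genes, MM1S in blue and MM1R in orange, open where the adjusted p was not under 0.05, with bars for medians. The medians of HP1 partners lie at −0.45 and −0.42, and ATF7IP and ATF7IP2 are the points on the far right.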

How the data were processed

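The deposited table holds raw read counts for 23354 genes in 16 libraries. Per the labels and the submitters' processing notes the authors worked with bcl2fastq 2.18.0.12, STAR 2.6.0, HTSeq 0.6.0, edgeR 3.28.1 and the hg19 genome. Here the counts were used as deposited. Genes were kept with filterByExpr, library sizes were scaled with TMM, and edgeR 4.0.16 estimated 1 coefficient for each group over the 16 libraries together (robust quasi-likelihood, 8 residual degrees of freedom, R 4.3.3). The F test was applied to 15 contrasts, each with Benjamini-Hochberg adjustment over 14215 genes and a threshold of 0.05. Intervals are at 95%. Log2 CPM used a prior count of 2. The model was tested on simulated data. Precision is limited by 2 libraries per group.

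The 10 genes, the gene lists and the promoter motifs were chosen with earlier results of these data known. Besides the 10, the text names, from the 6 lists, 3 genes called in each direction for TAK-981 per line, those of smallest adjusted p without overlap of libraries, and the 3 genes most correlated with TRIM28 and with SETDB1. Alternatives were RLE factors, library size alone, no low-count filter, DESeq2 1.42.0, a replicate block, the compared groups alone and each library left out. Columns of other comparisons were not used.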

Additional observations from a re-analysis of the deposited data

Results flagged for a closer look

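Against vehicle, Dex called 0% of all genes in MM1R and 42.3% in MM1S. The response to Dex differed between the lines for 5 of the 10 genes, beside 28.1% of all genes, by the interaction term of the edgeR fit. This term is the change in MM1R minus the change in MM1S, on the log2 scale. The difference was −0.34 for SETDB1 (adjusted p = 0.00574) and −0.488 for ATF7IP (adjusted p = 0.000102), both of which rose with Dex in MM1S, while the MM1R changes of 0.01 and 0.04 did not pass. It was 0.363 for ATRX (adjusted p = 0.0115), 0.323 for CBX3 (adjusted p = 0.0145) and 0.257 for CBX5 (adjusted p = 0.0166), all of which fell in MM1S. The calls of ATRX, CBX3 and CBX5 were each lost without at least 1 single library, while those of SETDB1 and ATF7IP held with each library left out. In every fit that lost any of these calls, fewer of all genes were called as well.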

How the results depend on the processing

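Of 186 counts recomputed under an alternative, 171 stayed within 1.5 times the reported count. For the 10 genes, 861 of 900 single values under settings with all libraries and 707 of 760 with 1 library left out kept their side of the threshold, and in 24 and 71 of them the sign differed with neither value called. No called value changed direction in any setting run. Combo against TAK-981 in MM1S called 4 of the 10 under the replicate block, with MORC3 and MPHOSPH8 added, beside 42.6% of all genes. The number called also rose without either MM1S TAK-981 library. The line by TAK-981 term called 2 with RLE factors, with library size alone and in DESeq2, 3 under the replicate block and from 0 to 4 with 1 library left out. The line by Dex term called from 3 to 5 with 1 library left out. The TAK-981 by Dex term in MM1S called 0 with the 4 groups alone, and fewer than with all libraries in several fits with 1 library left out. Fewer residual degrees of freedom were left in both, while over all genes some of the left-out fits called more. The cause of these shifts was not tested. A group left with 1 library is assumed to vary like the others. Library size alone moved the median of all genes by 0.07 at most on the log2 scale (TAK-981 by Dex in MM1S). Over all genes the line by TAK-981 term called 592 as reported, 1313 without the low-count filter, 2061 under the replicate block and 200 to 2292 with 1 library left out. The TAK-981 by Dex term in MM1S called 2125 as reported, 779 with its groups alone, 3579 under the block and 1044 to 3724 with 1 library left out.

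Same-numbered libraries deviated together only weakly in most pairs of groups. The correlation of their deviations ran from −0.01 to 0.26 over 12 pairs of groups within a line. It exceeded 0.1 in 2, both in MM1S: TAK-981 with Dex (0.26) and TAK-981 with combo (0.14). Between the lines the highest values were 0.19 (MM1S Dex with MM1R Dex) and 0.12 (MM1S combo with MM1R Dex). A block within each line does not cover these. The replicate block moved 10 of 150 values past the threshold and lost none. The counts of other silencing genes called with TAK-981, recomputed after the data were seen, stayed within 1.5 times. Depth and 2 libraries per group set the precision: the SE of the 10 TAK-981 changes ran from 0.054 to 0.097.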

Other observations

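This pathway silences retroelements, and a list of genes related to endogenous retroviruses was examined. Whether these genes are its targets in these cells was not tested. Of the 9 on the list that the table holds, 3 had enough counts to be tested, and 2 of these 3 rose with TAK-981 in each line, beside 25.2% (MM1S) and 25.8% (MM1R) of all genes. ERV3-1 rose by 1.15 (SE 0.089, edgeR adjusted p = 5.16e-09) in MM1S and by 1.57 (SE 0.090, adjusted p = 1.28e-10) in MM1R, and ERVK13-1 by 0.47 (SE 0.076, adjusted p = 4.3e-05) and 0.58 (SE 0.076, adjusted p = 4.35e-06). HHLA3 differed by 0.005 (SE 0.173, adjusted p = 0.983) and 0.09 (SE 0.169, adjusted p = 0.671). With Dex in MM1S 1 of the 3 rose, beside 20.8% of all genes. These 3 were named after their values were seen.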
